A study of Saccharomyces cerevisiae with 16 samples.

Results

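The 2 arrays described here carried the titles Taf5 minus rapamycin, steady-state RNA, replicate 2 and Taf5 plus rapamycin, newly synthesized RNA, replicate 2. They were chosen because they were the only Taf5-titled columns, of 16 columns in all, that were not a Taf4-titled column divided by 5. The other 6 Taf5-titled columns equalled a Taf4-titled column after that division, to within 0.01 intensity units, so the series held 10 distinct arrays. The 2 arrays were compared with all 8 Taf4-titled arrays, which comprised 2 replicates each of steady-state and newly synthesized RNA, with and without rapamycin. Below, the 2 arrays are called the steady-state minus array and the newly synthesized plus array, after their titles. A gene was called above when both arrays exceeded the highest of the 8, and below when both lay under the lowest of the 8. Of 4359 S. cerevisiae genes tested, 30 were above (0.688%) and 132 were below (3.03%).

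The study used budding yeast built for anchor-away, in which rapamycin draws an FRB-tagged nuclear protein out of the nucleus with the ribosomal protein Rpl13A as the anchor. Taf4 and Taf5 are subunits of TFIID, the complex that carries TATA-binding protein to promoters, and Taf5 is also a subunit of the coactivator SAGA. The labels gave all 16 samples, those titled Taf5 included, the parent W303 and the same MATalpha genotype with tor1-1, fpr1::NAT, RPL13A-2xFKB12::TRP1 and TAF4-FRB::HYGRO. No genotype with a tagged TAF5 was given for the 2 arrays. Cells grew in YPD, a rich medium, and received rapamycin or DMSO for 30 min and then 5 mM 4-thiouracil for 6 min, which marks new RNA. The protocol gave 1 µg/mL rapamycin, while the series' design text gave another concentration. Wild-type S. pombe cells that had also taken up 4-thiouracil served as a spike-in, 1 part to 3 parts S. cerevisiae. The labels named no untagged strain treated with rapamycin, and they do not tell whether replicates are separate cultures. The p-values below therefore measure only the spread between these arrays, which may be technical.

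Laboratory yeast strains carry mutations in genes of amino acid and nucleotide synthesis so that transformed cells can be selected on media lacking the product. W303 derivatives usually carry mutant alleles of ADE2, CAN1, HIS3, LEU2, TRP1 and URA3 and a functional LYS2. Strain backgrounds also differ in many genes of nutrient uptake, iron use, sterol synthesis and the cell surface.

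Values are log2 intensities, shifted so that the S. pombe median was equal on all arrays. On this scale the S. cerevisiae median was 8.01 on the steady-state minus array and 7.38 on the newly synthesized plus array. It ranged from 6.78 to 9.17 over the 8. The differences between the 3' and 5' control probe sets of ACT1, SPT15 and SRB4, a sign of RNA quality, lay within the range of the 8 on both arrays. They lay outside the 2 Taf4-labelled arrays of the same label. For ACT1 the steady-state minus array read 3.57 against 4.28 and 4.63 for its label. The newly synthesized plus array read 4.19 against 3.015 and 3.28. SPT15 and SRB4 were likewise lower than the label on the former array and higher on the latter. Without detection calls, no statement can be made on whether the dimmest signals exceeded background, and the number of arrays limits the precision.

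Neither array was most like the Taf4-labelled arrays of its own label. Across 4359 genes, the Spearman correlation of the steady-state minus array was 0.881 and 0.849 with the 2 Taf4-labelled arrays of the same label, steady-state RNA without rapamycin. It was 0.913 and 0.916 with the 2 Taf4-labelled arrays of newly synthesized RNA without rapamycin. The newly synthesized plus array correlated at 0.779 and 0.789 with the 2 arrays of its own label, the lowest of its 8 values. Its highest values, 0.890 and 0.883, were with steady-state RNA without rapamycin, which differs from its label in both fraction and treatment. Over 1396 S. pombe probe sets, which read the spike-in, that array correlated at 0.954 and 0.932 with steady-state RNA without rapamycin and at 0.739 and 0.759 with its own label. The steady-state minus array correlated over S. pombe at 0.809 and 0.787 with its own label and at 0.918 to 0.940 with the other 6, steady-state RNA with rapamycin (0.935 and 0.918) included. The 6 copied columns likewise had opposite fraction labels under the 2 strain names. These correlations run across genes, which are not independent replicates, and no array was moved to another label.

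The 2 arrays resembled each other more than either resembled any of the 8. Their Spearman correlation with each other was 0.937 over S. cerevisiae genes. Replicate pairs of the Taf4-labelled arrays reached 0.982 to 0.992. Over the S. pombe probe sets the order was different, since the 2 arrays correlated at 0.848 with each other and each had higher values with some of the 8. The strain label, the array and anything else particular to these 2 arrays cannot be told apart.

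**Figure D1:**
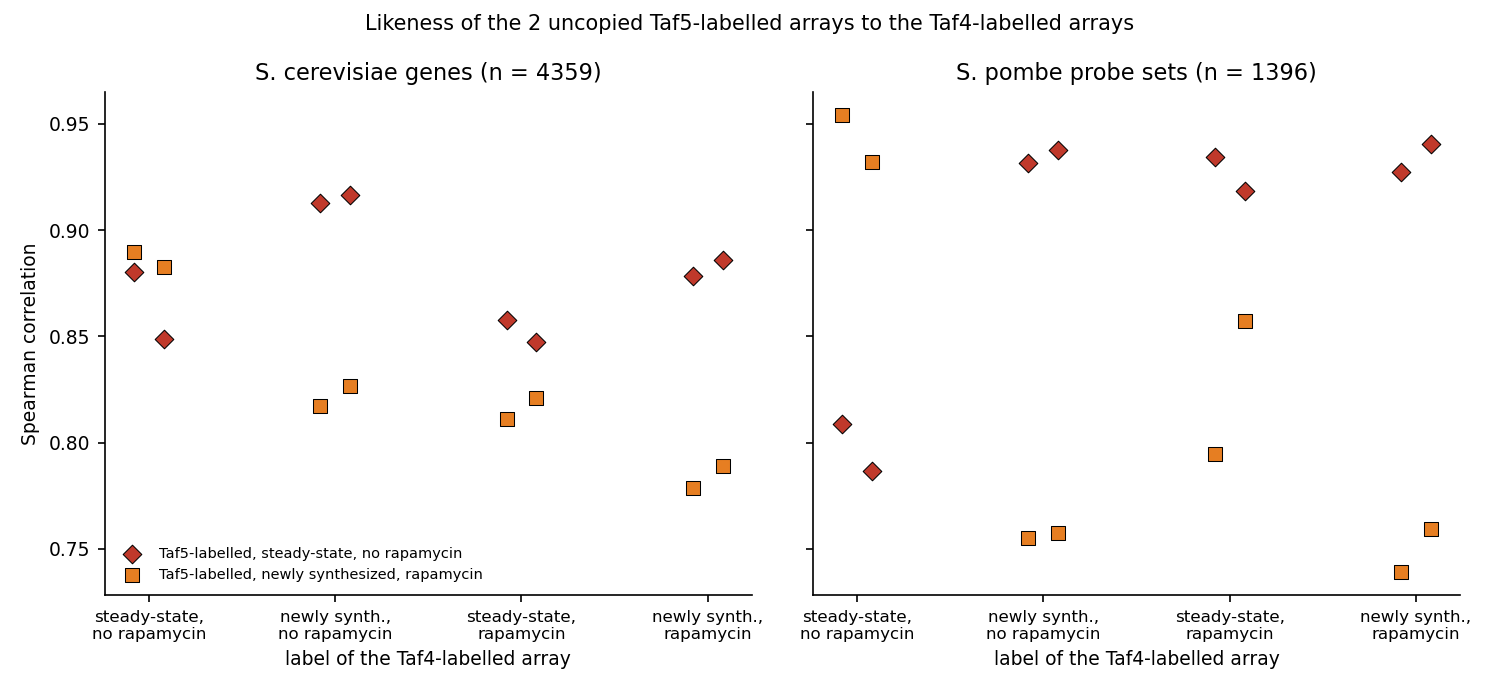
Spearman correlation (vertical axis, not starting at 0) of each uncopied Taf5-labelled array with each of the 8 Taf4-labelled arrays, grouped by the label of the latter, over 4359 S. cerevisiae genes (left) and 1396 S. pombe probe sets (right). The newly synthesized plus array (squares) has its lowest value against its own label in both panels. Over S. pombe its values against newly synthesized RNA without rapamycin, 0.755 and 0.757, are about as low. The steady-state minus array (diamonds) is highest over S. cerevisiae genes against newly synthesized RNA without rapamycin.

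The 30 genes above and the 132 genes below exceeded the spike-in in the size of the gap but not in the total share called. The share below alone was slightly larger than in the spike-in, at 3.03% against 2.87%. The gap is the distance on the log2 scale from the nearer of the 2 arrays to the nearest of the 8. The S. pombe cells were the same wild type in all samples, per the labels. Of their probe sets 87 of 1396 were above (6.23%) and 40 were below (2.87%), a larger share in all (9.1%) than in S. cerevisiae (3.72%). The largest S. pombe gaps were 0.37 above and 0.55 below, with a median of 0.11 on both sides. In S. cerevisiae the median gap was 0.33 above and 0.24 below, and the largest reached 2.70 and 2.96. At a gap of at least 1, 4 genes above and 15 genes below remained in S. cerevisiae and 0 S. pombe probe sets on either side. Gaps up to 0.55 were thus seen in the spike-in too, and genes with smaller gaps are mostly given below by their values only. Without the steady-state minus array 236 S. pombe probe sets were above and 265 below, and without the newly synthesized plus array 289 and 131.

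**Figure D2:**
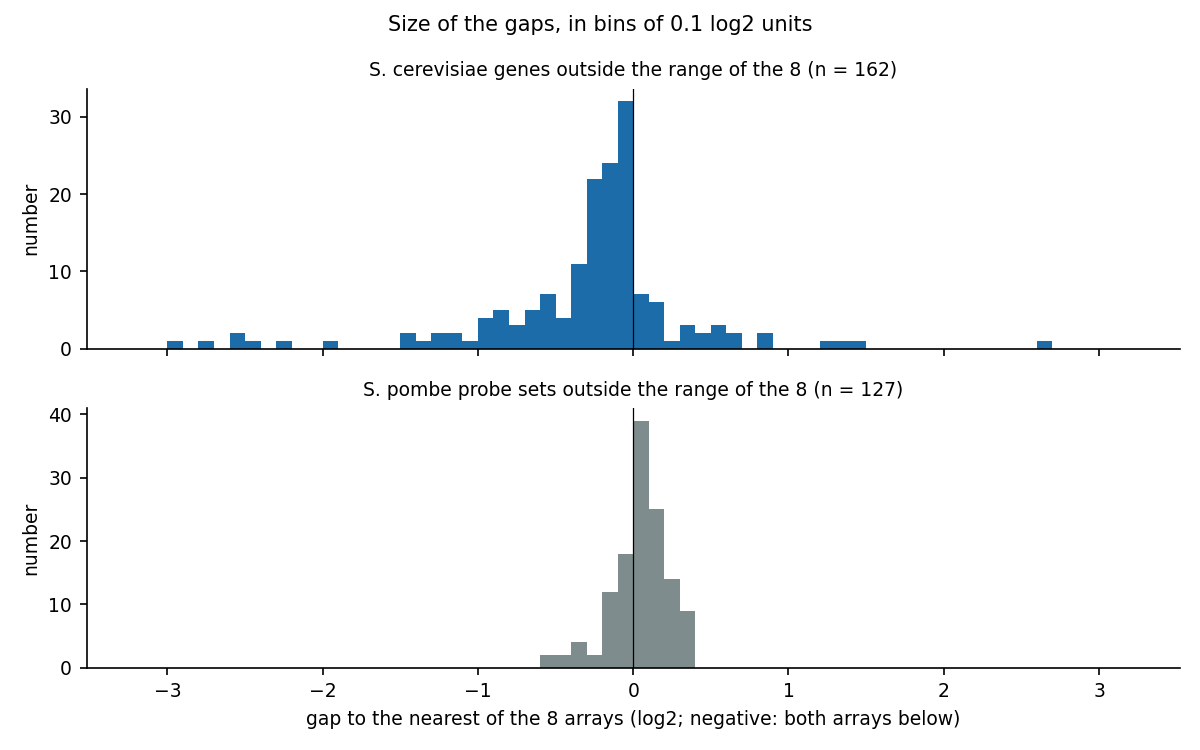
Gap to the nearest of the 8 arrays (horizontal axis, log2, negative where both arrays lay below) for the 162 S. cerevisiae genes and the 127 S. pombe probe sets outside the range of the 8, counted in bins of 0.1 log2 units. The S. pombe gaps end at 0.37 above and 0.55 below, while S. cerevisiae gaps run out to 2.70 and 2.96.

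The counts depended on single arrays and on the scaling. Without the newly synthesized plus array, 239 genes were above, and without the steady-state minus array 1356 were below, each then resting on 1 array. Without the second Taf4-labelled replicate of steady-state RNA without rapamycin, 52 genes were above. With equal S. cerevisiae medians in place of equal S. pombe medians the counts were 452 above and 470 below. Of the 30 genes above, 23 were above under all 4 scalings tried, and of the 132 below, 57 were below under all 4.

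A limma fit took the 2 arrays against Taf4-labelled arrays of the same fraction and treatment label, with 1 common term for the strain label. It called 22 genes higher (0.505%) and 110 lower (2.52%) at an adjusted p under 0.05, and among them were 18 of the 30 genes above and 74 of the 132 below. The median difference over all tested genes was -0.27. It was -0.06 with equal S. cerevisiae medians and 0.03 with equal trimmed means, so the differences of single genes are read against that shift. The same fit called 0 of 1396 S. pombe probe sets, with 84 at an unadjusted p under 0.05. Without the steady-state minus array it called 328 higher and 509 lower, and without the newly synthesized plus array 493 and 283. Matched to the opposite fraction label, the fit called 296 genes higher (6.79%) and 449 lower (10.3%), among them all 30 genes above and 131 of the 132 below, but also 165 (11.8%) and 322 (23.1%) of the S. pombe probe sets. Leaving out a Taf4-labelled array gave 8 to 14 genes higher and 32 to 52 lower under the label-matched fit. Without the steady-state minus array it gave 1729 and 733 genes, and without the newly synthesized plus array 122 and 2956. The range calls and these fits use the same arrays and values, so their overlap is no support for either. Adjusted p-values printed below come from the label-matched limma fit, and those of genes left out by the filter on dim genes come from the same fit over all 5449 genes. For genes picked by their gap they are no independent test of that gap.

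TAF4 and TAF5, the genes named in the titles, both lay outside the range of the 8, in opposite directions. TAF4 (YMR005W, chromosome XIII, 276045 to 277211 in R64) read 10.07 and 9.45 on the steady-state minus and the newly synthesized plus array. Over the 8 it read 4.99 at the lowest, 6.54 at the median and 8.05 at the highest. Both arrays lay above all 8, and the fitted difference was 3.15 ± 0.44 (SE, adjusted p = 0.0102, and 0.0523 with the replicate number as a block). TAF5 (YBR198C, chromosome II, 616127 to 618523) read 7.17 and 6.73, against 7.56, 8.40 and 10.14 at the lowest, median and highest of the 8. Its fitted difference of -1.92 ± 0.42 did not pass (adjusted p = 0.0511), although both arrays lay below all 8. The gap of TAF5 was 0.38, which is within the S. pombe gaps below, which reached 0.55. Its place outside the range is thus weaker than that of TAF4, whose gap exceeded every S. pombe gap. The position of these probe sets relative to the tags was not analysed. Anchor-away moves a protein and need not alter its RNA, so neither value measures depletion.

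No other TFIID gene was called. Of 15 TFIID genes tested, TAF4 alone was above and TAF5 alone below. Of 14 SAGA genes and 20 Mediator genes, 0 were above and 0 below. The SAGA list did not include TAF5, which was counted with the TFIID genes. Over all tested genes 3.72% lay outside, a share at which lists this small may hold none. The median differences of the 3 lists were -0.52, -0.48 and -0.42, beside -0.27 over all genes. Of 17 tested genes beside TAF4, TAF5, RPL13A and FPR1 on their chromosomes, EAF7 and MIX17 were below, with gaps of 0.23 and 0.06 that each closed under at least 1 other scaling. No probe set named FPR1 or TRP1 was found, and both are not analysed here.

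Some of the widest gaps were at genes used as nutritional markers. URA3 (YEL021W, chromosome V, 116167 to 116970), which encodes the decarboxylase of the last step of UMP synthesis, read 9.65 and 8.62 on the 2 arrays. Over the 8 it read 0.05, 1.56 and 2.86 at the lowest, median and highest. Both arrays lay above all 8, with a fitted difference of 7.75 ± 0.63 (adjusted p = 0.000717). LYS2 (YBR115C, chromosome II, 469748 to 473926), the aminoadipate reductase of lysine synthesis, read 8.94 and 8.57, against 0.41, 1.27 and 3.55 over the 8. The fitted difference was 6.14 ± 0.63 (adjusted p = 0.00302). LEU2 (YCL018W, chromosome III, 91324 to 92418), the isopropylmalate dehydrogenase of leucine synthesis, read 9.42 and 9.28. The 8 arrays gave 3.27, 4.24 and 4.83, and the fitted difference was 5.25 ± 0.34 (adjusted p = 0.000385). URA3, LYS2 and LEU2 were dim on all 8 arrays in both fractions and with and without rapamycin, and bright on both of the 2 arrays. Signals this dim are not shown to exceed background, so these differences are contrasts of array signal and not measured folds of RNA.

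HIS3 went the other way. HIS3 (YOR202W, chromosome XV, 721946 to 722608), the imidazoleglycerol-phosphate dehydratase of histidine synthesis, read 7.22 and 6.44 on the 2 arrays. Over the 8 it read 9.77, 10.12 and 10.85, so both arrays lay below all of them by at least 2.56. The fitted difference was -3.45 ± 0.21 (adjusted p = 0.000318). ADE2, which functions in adenine synthesis, read 9.22 and 8.67 and lay within the range of 7.84 to 9.86. CAN1, the arginine permease, read 8.30 on both arrays, within 6.52 to 8.80. TOR1 and the anchor gene RPL13A were also within or straddled the range, at 7.17 and 6.86 against 5.93 to 8.02 and at 7.91 and 6.02 against 6.93 to 8.20.

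The same contrast appeared in the rank of each probe set within its own array, which uses no scaling between arrays and is read here only for 1 probe set at a time. Among 5449 genes, URA3 stood at percentile 0.165 to 1.10 on the 8 arrays and at 81.1 and 77.9 on the 2. LEU2 moved from 0.606 to 14.2 on the 8 to 78.1 and 87.0, and LYS2 from 0.0734 to 4.28 to 69.3 and 76.9. HIS3 stood at 85.2 to 90.6 on the 8 and at 32.0 and 28.5 on the 2. TAF4 stood at 16.3 to 32.3 and at 85.8 and 88.6, and TAF5 at 63.2 to 78.0 and at 31.2 and 34.5. None of these ranges included either of the 2 arrays.

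AIF1, which is no selection marker, had the widest gap of all genes on the array. The gene (YNR074C, chromosome XIV, 777602 to 778738), a mitochondrial factor of yeast cell death, read 0.36 and 0.81 on the 2 arrays. Over the 8 it read 6.62, 7.66 and 9.21. The fitted difference was -7.29 ± 0.55 (adjusted p = 0.000634), again against signals not shown to exceed background, here on the 2 arrays. AIF1 was dim only on these 2 of the 10 arrays. The genes on each side of URA3, LEU2, LYS2, HIS3, AIF1, TAF4 and TAF5 were 14 in number, of which 12 had a probe set, and for all 12 at least 1 of the 2 arrays stayed inside the range or the 2 fell on different sides. For COS10, the neighbour of AIF1, the values were 4.88 and 4.01 against 3.67 to 4.94.

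**Figure D3:**
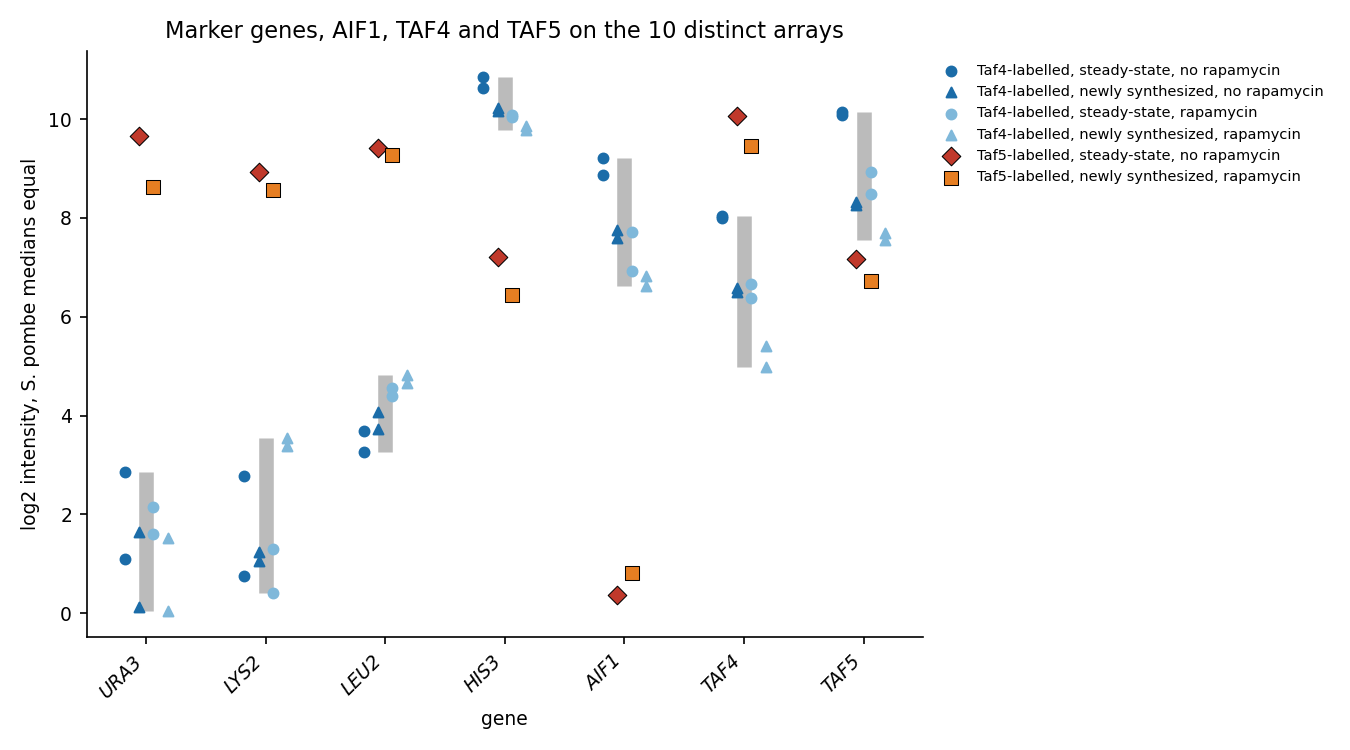
Log2 intensity (vertical axis, S. pombe medians equal) of 7 genes on the 10 distinct arrays. Grey bars span the 8 Taf4-labelled arrays (blue symbols, 2 replicates per label), and the red diamond and orange square are the 2 uncopied Taf5-labelled arrays. URA3, LYS2, LEU2 and TAF4 have both arrays above the bar, and HIS3, AIF1 and TAF5 have both below it.

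Alpha-cell genes were bright and a-cell genes dim on the 2 arrays, as they were on the 8. The labels gave MATalpha for all samples. The dimmest of 5 alpha-cell genes on the 2 arrays was HMLALPHA1, a regulator of alpha-specific genes, at 8.75 and 7.75. MF(ALPHA)1, which encodes the alpha-factor pheromone, read 12.10 and 10.81 against 12.24, 12.71 and 13.21 over the 8. SAG1, the alpha-agglutinin, read 10.10 and 9.37 against 10.12, 11.07 and 12.56. Both were below by gaps of 0.14 and 0.02, each of which closed under at least 1 other scaling. MF(ALPHA)2, STE3 and HMLALPHA1 were not outside the range on both arrays, nor was any of the 7 a-cell genes, all of which were among the dimmest genes left out by the filter. The brightest a-cell gene on the 2 arrays was STE6, at 5.88 and 6.18 against 3.84 to 7.07, and no a-cell gene was above all 8 on both arrays.

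Genes of nitrogen catabolism were the list with the most members above. Yeast represses these transporters and enzymes while a preferred nitrogen source is present, through GATA factors downstream of the TOR kinase. Of 17 tested members 5 were above and 0 below, beside 0.688% above over all tested genes, and the list's median difference was 0.73 beside -0.27. The mean behind the filter includes the 2 arrays. PUT1 and MEP1, with medians of 6.02 and 6.01 over the 8, could have passed it through the 2 arrays. Both the count above and the median difference may be raised in that way. By limma 3 of the 17 were called higher and 0 lower, and 2 or 3 when a Taf4-labelled array was left out. GDH1 was above under fewer than all 4 scalings and the others under all 4. A further 2 members, PUT4 and DAL80, were above among the 11 left out by the filter, beside 22 of all 1090 left out.

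GAP1 (YKR039W, chromosome XI, 515063 to 516871), the general amino acid permease, had the largest gap above among the tested genes. It read 10.37 and 9.80 on the 2 arrays and 5.57, 6.64 and 7.11 at the lowest, median and highest of the 8. The array labelled as untreated was the higher of the 2, and both lay at least 2.70 above all 8. The fitted difference was 3.46 ± 0.22 (adjusted p = 0.000318). MEP2, the high-affinity ammonium permease, read 9.63 and 9.18 against 5.92, 6.53 and 7.97. The fit gave 2.36 ± 0.31 (adjusted p = 0.00797), a call lost in the fit with the treatment label alone. PUT4, the proline permease, read 7.91 and 6.94 against 3.90, 4.55 and 4.99, with a fitted difference of 2.78 ± 0.36 (adjusted p = 0.00875).

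The other members of the list had smaller gaps than GAP1 and PUT4. PUT1, the proline oxidase, read 8.64 and 8.07 against 5.34, 6.02 and 7.27. MEP1, a second ammonium permease, read 8.10 and 7.97 against 5.29, 6.01 and 7.46. DAL80, a GATA repressor that is itself repressed by good nitrogen sources, read 6.57 and 5.20 against 0.40, 2.34 and 3.62. In all 3 both arrays lay clear of the 8, with the steady-state minus array the higher. GDH1, the NADP-dependent glutamate dehydrogenase, read 11.95 and 10.79 against 10.30, 10.58 and 10.73, a gap of 0.05 that is within the S. pombe gaps.

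Of 20 tested sulfur and methionine genes 3 were above and 0 below, beside 0.688% and 3.03% over all tested genes. The 3 were above under all 4 scalings, and the list's median difference was 0.55. limma called all 3 higher, but only 1 was called when a Taf4-labelled array was left out, since SAM2 and MET6 each lost the call in 8 such fits. MET17, the O-acetylhomoserine sulfhydrylase that fixes sulfide, read 11.37 and 10.69 against 8.69, 8.99 and 9.81 over the 8. The fit gave a difference of 1.78 ± 0.21 (adjusted p = 0.00711), a call lost under loess scaling and with the treatment label alone. SAM2, an S-adenosylmethionine synthetase, read 9.63 and 8.73 against 7.57, 7.77 and 8.10. MET6, the methionine synthase, read 10.06 and 9.61 against 8.49, 8.85 and 9.11. Neither array overlapped the 8 for any of the 3 genes. Among the 9 members left out by the filter, 2 were above and 1 below, beside 22 and 24 of all 1090 left out.

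Of 27 ergosterol genes, 3 were above and 0 below, beside 0.688% and 3.03% over all genes, and the median difference was 0.58. ERG13, the HMG-CoA synthase at the entry to the pathway, read 11.46 and 10.61 against 9.11, 9.61 and 10.15. ERG5, the sterol C-22 desaturase, read 9.85 and 9.75 against 7.71, 8.58 and 9.54. ARE2, which esterifies sterols for storage, read 7.75 and 7.25 against 6.31, 6.66 and 7.13. ERG13 alone was above under all 4 scalings, and all 3 gaps were under 0.55. By the label-matched limma fit 1 of the 27 was called higher (0 or 1 when a Taf4-labelled array was left out), and by the fit to the opposite fraction 13 were, beside 6.79% of all genes.

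HMX1, the haem oxygenase, which releases iron from haem, and genes of respiration had members above. HMX1 read 9.49 and 8.74 against 5.18, 5.75 and 7.34 over the 8. The mean behind the filter includes the 2 arrays, so HMX1, with a median of 5.75 over the 8, could have passed it through them. Both arrays exceeded all 8, and the fitted difference was 3.04 ± 0.33 (adjusted p = 0.00432). Of 44 respiration genes 3 were above and 3 below, beside 0.688% and 3.03% over all genes. CYC1, iso-1-cytochrome c, read 11.72 and 10.50 against 8.99, 9.51 and 10.02. RIP1, the Rieske iron-sulfur protein of complex III, read 8.25 and 7.58 against 6.61, 6.84 and 7.23. NDE1, the external NADH dehydrogenase, read 10.66 and 10.14 against 8.68, 9.27 and 10.03, and its gap of 0.11 did not hold under all 4 scalings.

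SDH3, a membrane subunit of succinate dehydrogenase, lay on the other side, at 8.63 and 7.34 against 9.94, 10.10 and 10.33. Its fitted difference was -2.11 ± 0.28 (adjusted p = 0.00797), a call lost with equal S. cerevisiae medians. HAP1, the haem-responsive activator whose targets include CYC1, was outside the naming rule and was looked up after its values were seen. It read 6.52 and 6.83 against 7.15, 7.67 and 9.04. Both arrays lay below all 8, by 0.32, and the gap closed under at least 1 other scaling.

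Other genes above in both arrays were of mixed function. DIA1, a gene of invasive growth, read 9.57 and 9.01 against 5.25, 6.69 and 8.33. PLN1, a lipid droplet protein, read 9.39 and 8.29 against 6.85, 7.28 and 7.76. Both arrays were clear of the 8 in both genes. RNR2, the small subunit of ribonucleotide reductase, ACS2, an acetyl-CoA synthetase, ECM38, a glutathione-degrading enzyme, and ATR1, a multidrug efflux pump, were also above, with gaps of 0.12, 0.07, 0.07 and 0.19.

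**Figure D4:**
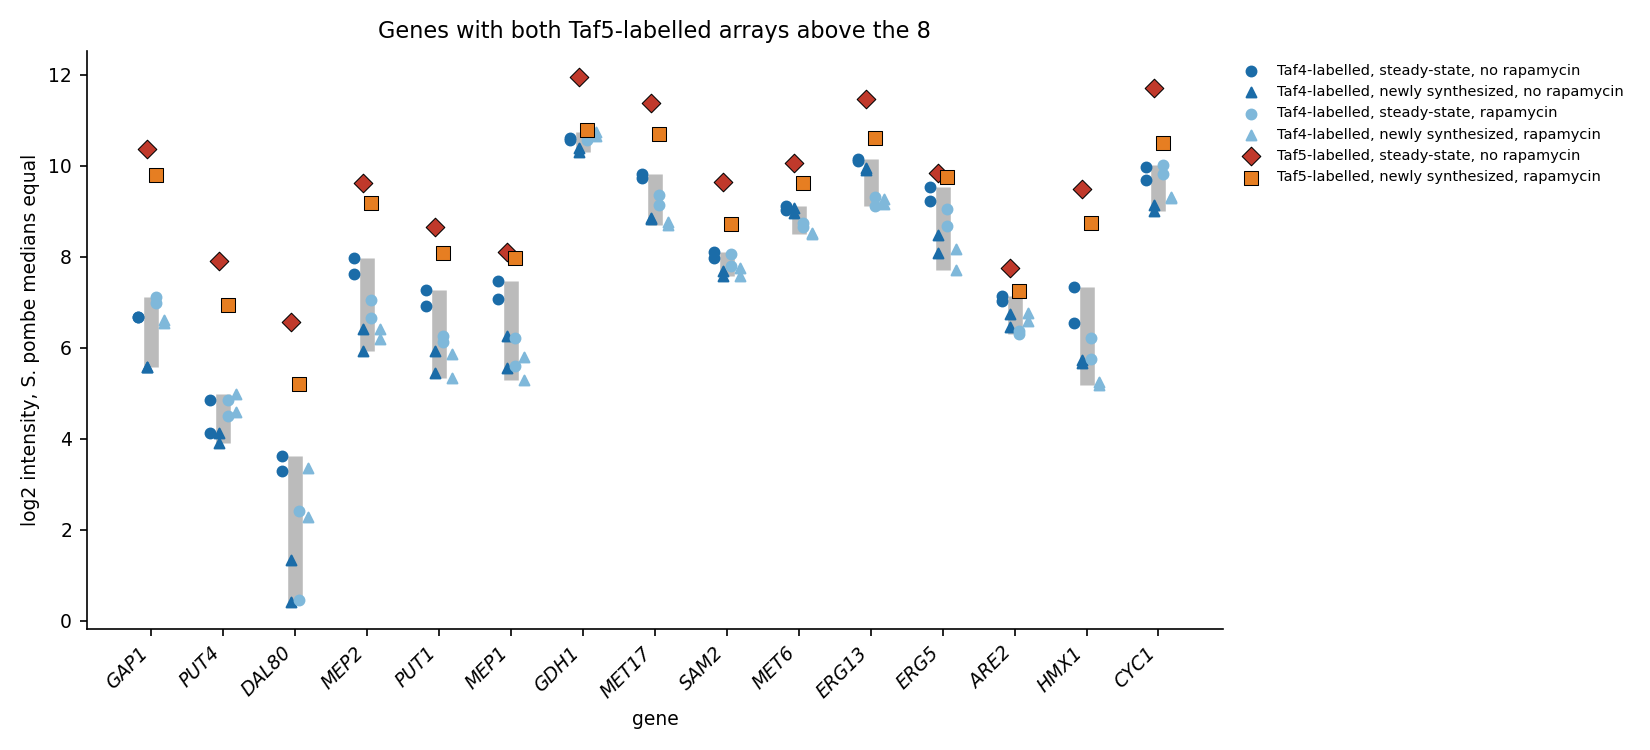
Log2 intensity (vertical axis, S. pombe medians equal) of 15 genes with both uncopied Taf5-labelled arrays above the 8. Grey bars span the 8 Taf4-labelled arrays (blue symbols), and the red diamond and orange square are the 2 arrays. GAP1, PUT4, DAL80, HMX1 and MEP2 show the widest gaps, and for GDH1, ARE2 and ERG5 the newly synthesized plus array lies just above the bar.

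Among the 132 genes below, FIT2 had the largest gap of the tested genes. FIT2 and FIT3 encode mannoproteins of the cell wall that retain iron-siderophore complexes. FIT2 (YOR382W, chromosome XV, 1059531 to 1059992) read 5.73 and 4.99 on the 2 arrays and 8.69, 9.21 and 9.62 at the lowest, median and highest of the 8. Its gap was 2.96, with a fitted difference of -3.79 ± 0.33 (adjusted p = 0.00167). FIT3, its neighbour on the chromosome, read 8.01 and 8.02 against 9.04, 9.62 and 9.74.

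Of 23 iron and copper genes tested 4 were below and 1, HMX1, above, beside 3.03% and 0.688% over all tested genes, and the list's median difference was -0.21 beside -0.27. Of 24 tested cell wall and flocculation genes 3 were below and 0 above, with a median of -0.27. FET3, the multicopper oxidase of high-affinity iron uptake, read 9.99 and 8.97 against 10.20, 10.40 and 10.75. ISU2, a scaffold for iron-sulfur clusters, read 9.94 and 9.16 against 10.16, 10.73 and 11.47. The gaps of FET3 and ISU2 were within those of the spike-in, and FIT3 and FET3 were not below under all 4 scalings. TIS11, an RNA-binding protein that acts when iron is scarce and that the filter left out, read 4.34 and 3.82 against 5.65, 6.33 and 6.96, with a fitted difference of -2.25 ± 0.26 (adjusted p = 0.00425).

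Of 14 hypoxic genes 3 were below and 0 above, beside 3.03% below over all genes. TIR1 (YER011W, chromosome V, 175248 to 176012), a cell wall mannoprotein made under cold shock and low oxygen, read 6.91 and 5.71 against 9.61, 9.77 and 10.37. Its fitted difference was -3.45 ± 0.30 (adjusted p = 0.00167). TIR3, of the same family, read 6.51 and 5.77 against 7.76, 7.93 and 8.27, with a fitted difference of -1.84 ± 0.22 (adjusted p = 0.00711). Both arrays lay clear of the 8 in both genes. COX5B, the hypoxic isoform of cytochrome c oxidase subunit V, read 8.86 and 7.31 against 9.48, 9.70 and 10.07, and was not below under all 4 scalings. The list's median difference was -0.30, close to that of all genes. PAU4, a seripauperin, read 3.97 and 4.54 against 5.48, 7.40 and 9.65.

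ICS2, QDR2, GPX2 and CLC1 had gaps of 1.90 to 2.52 below. ICS2 (YBR157C, chromosome II, 553543 to 554310), whose function is not established, read 5.55 and 5.59 against 8.10, 8.79 and 9.61. For ICS2 the fit gave -3.16 ± 0.25 (adjusted p = 0.000975). QDR2 (YIL121W, chromosome IX, 132244 to 133872), a plasma membrane transporter of drugs and cations, read 4.66 and 3.56 against 7.11, 7.55 and 8.46, a fitted difference of -3.75 ± 0.27 (adjusted p = 0.000693). Both genes were lower on both arrays than on any of the 8, and for both the 8 arrays spanned less than the gap. GPX2, a phospholipid hydroperoxide glutathione peroxidase, read 8.01 and 6.62 against 10.23, 10.47 and 10.89, a fitted difference of -3.07 ± 0.29 (adjusted p = 0.00231). CLC1, the clathrin light chain, read 8.43 and 6.88 against 10.33, 10.61 and 10.78, a fitted difference of -2.96 ± 0.32 (adjusted p = 0.00432).

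SRX1 and CIS1 also stood well below the 8. SRX1, the sulfiredoxin that repairs overoxidized peroxiredoxins, read 4.58 and 2.58 against 6.04, 7.30 and 8.72. The fit gave a difference of -3.68 ± 0.37 (adjusted p = 0.00383), a call lost with the treatment label alone. CIS1 read 5.86 and 5.85 against 7.35, 7.75 and 9.18. GIS3 read 5.22 and 4.77 against 6.39, 7.56 and 9.34, and WSC4, of a family of cell wall sensors, read 6.97 and 6.43 against 7.95, 8.89 and 10.27. In all 4 genes neither array overlapped the 8.

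Of 36 general stress genes 9 were below and 0 above, beside 3.03% below over all tested genes. The list's median difference was -1.32, and 34 of the 36 differences were negative. The 2 arrays contributed unequally. Against its own label the list's median was -0.46 on the steady-state minus array, where the median of all tested genes was -0.91. On the newly synthesized plus array it was -2.23, beside 0.40 over all tested genes. The list's median was thus lower than that of all genes only on the latter array. The difference between the 2 arrays was positive by limma for 24 of the 36 genes and negative for 3, beside 7.8% and 64.5% of all tested genes. DDR48, a DNA damage-responsive protein, read 8.89 and 7.98 against 10.07, 10.70 and 10.98, with a fitted difference of -2.30 ± 0.26 (adjusted p = 0.00507). SPI1, a cell wall protein of stationary phase, read 7.30 and 6.40 against 7.995, 8.66 and 9.33, with a fitted difference of -1.84 ± 0.26 (adjusted p = 0.00970). HSP42, a small heat shock protein, read 6.70 and 5.61 against 7.06, 7.89 and 8.77, with a fitted difference of -1.99 ± 0.26 (adjusted p = 0.00789). SPI1 and HSP42 lost the call with the treatment label alone, and SPI1 also with equal S. cerevisiae medians. PNC1, the nicotinamidase, read 9.38 and 7.89 against 10.04, 10.71 and 11.21. Of the 9 genes 5 were below under all 4 scalings. By limma 8 of the 36 were called lower, and 4 to 6 when a Taf4-labelled array was left out, and 1 of 22 heat shock chaperone genes was below, with a list median of -0.18.

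Histone and cell cycle genes were lower in part. Of 9 histone genes 4 were below and 0 above, beside 3.03% below over all genes, with a median difference of -0.82 beside -0.27. HHT1, one of a pair of histone H3 genes, read 10.83 and 9.89 against 11.69, 12.004 and 12.68. HTB2, an H2B gene, read 11.17 and 9.91 against 11.69, 12.25 and 12.77. HHT2 and HTA1 had gaps of 0.23 and 0.0033 and were not below under all 4 scalings, and near-identical copies such as HHT1 and HHT2 may share signal. Of 16 G1 genes 4 were below and 0 above, against the same background, with a median difference of -0.71. SIC1, the inhibitor of S-phase cyclin-dependent kinase, read 6.78 and 6.12 against 7.54, 8.36 and 9.22, with a fitted difference of -1.84 ± 0.26 (adjusted p = 0.00967). PCL1, a G1 cyclin, read 7.39 and 7.17 against 7.95, 8.88 and 9.79, with a fitted difference of -1.62 ± 0.22 (adjusted p = 0.00877). Both calls were lost under loess scaling and with the treatment label alone. POL30, the sliding clamp of DNA replication, and RNR1 were below by 0.19 and 0.07, which other scalings closed.

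Of 15 genes of daughter-cell separation 2 were below, beside 3.03% of all genes, with a median difference of -0.53 beside -0.27. DSE1 read 6.69 and 5.79 against 7.21, 7.76 and 8.69. Both arrays lay below all 8, by a gap of 0.53 that is within the S. pombe gaps below, which reached 0.55. DSE4, a glucanase that parts daughter from mother, read 8.17 and 7.75 against 8.45, 9.22 and 11.13. Its gap closed under at least 1 other scaling.

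The large gene groups of growth had few members outside the range. Of 87 ribosome biogenesis genes 0 were above and 0 below, and of 127 cytosolic ribosomal protein genes 0 were above and 1 was below. Over all tested genes 3.72% lay outside. By limma 3 of the 87 were called lower, beside 2.52% of all tested genes, and 0 or 1 when a Taf4-labelled array was left out. The medians of these lists were -0.37 and -0.35, beside -0.27 over all genes. Of 40 splicing genes and 19 genes of the unfolded protein response, 0 were above and 0 below. Purine genes had 0 of 14, thiamine genes 0 of 10 and tested pyrimidine genes 0 of 11 outside the range. At a share of 3.72% over all tested genes, 0 in lists this small is no result about their members. Among 3 pyrimidine genes left out by the filter, 2 were above, beside 22 of all 1090 left out. Of 60 tested genes near chromosome ends, 1 was above and 3 were below. Among 100 such genes left out by the filter 3 were above and 5 below, beside 22 and 24 of all 1090 left out.

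Besides AIF1, the filter on dim genes had left out 3 reading frames without a standard name among its largest gaps below. YGL235W (chromosome VII, 55279 to 55815) read -1.16 and -1.86 on the 2 arrays and 2.02, 2.66 and 3.22 over the 8. Its fitted difference was -4.08 ± 0.28 (adjusted p = 0.000408), at signals among the dimmest of every array. YBR013C (chromosome II, 265492 to 265881) read 3.49 and 1.42 against 5.08, 6.42 and 6.84, with a fitted difference of -3.54 ± 0.28 (adjusted p = 0.000700). YBL071C-B read 0.12 and -1.19 against 1.55, 3.75 and 4.14, and its call by limma was lost in 10 of 20 alternatives. In all, 22 genes above and 24 below were among the 1090 left out.

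**Figure D5:**
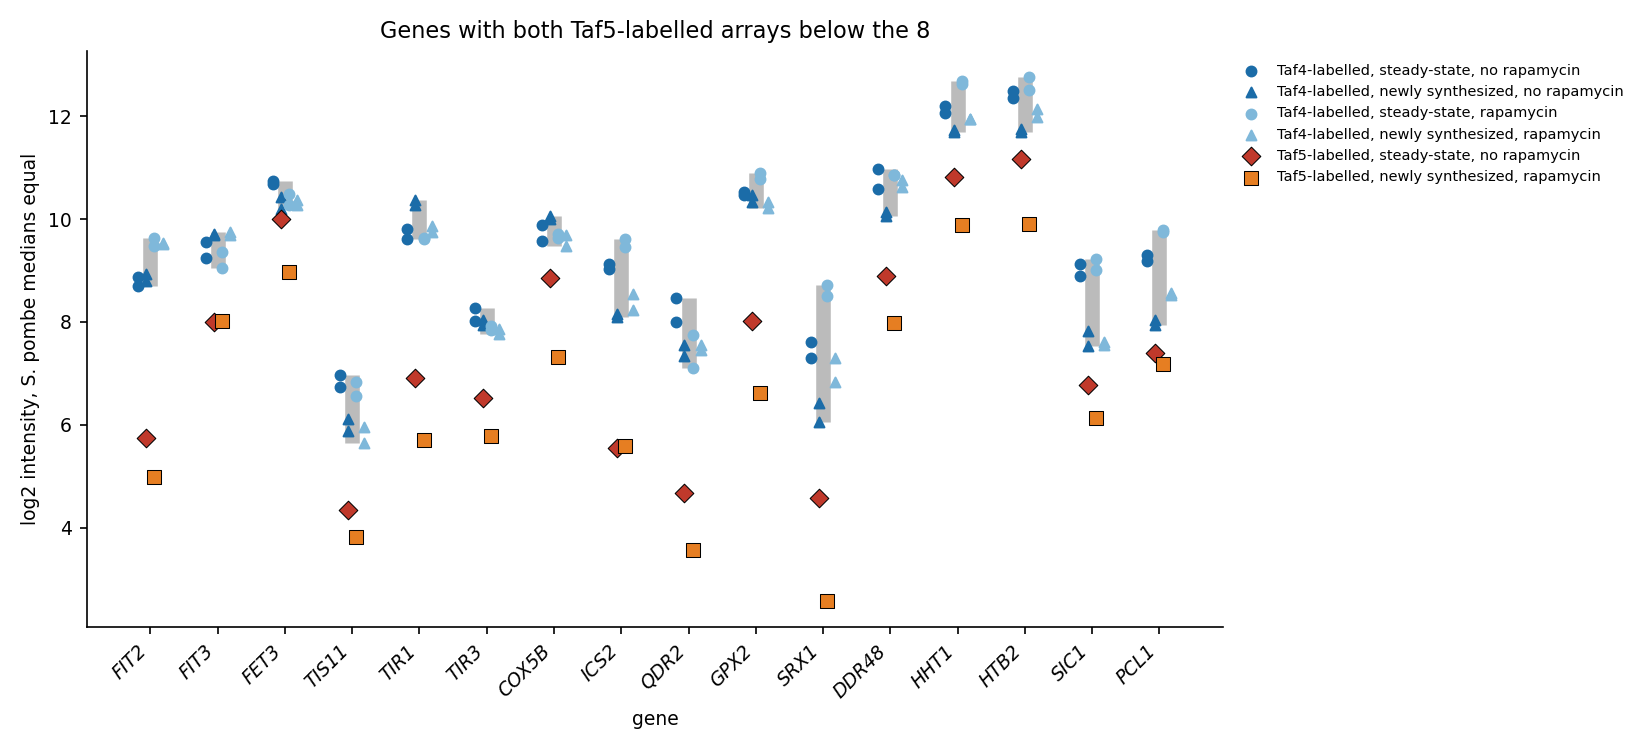
Log2 intensity (vertical axis, S. pombe medians equal) of 16 genes with both uncopied Taf5-labelled arrays below the 8. Grey bars span the 8 Taf4-labelled arrays (blue symbols), and the red diamond and orange square are the 2 arrays. FIT2, TIR1, ICS2, QDR2 and GPX2 lie farthest below the bars, while for FET3 the steady-state minus array lies just under the bar.

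The 2 arrays differed unequally from the arrays of their own labels. Against its label, the steady-state minus array had a median difference of -0.91 over 4359 genes, and the newly synthesized plus array had 0.40. For 2963 genes the 2 differences had opposite signs. By limma, the difference between these 2 differences was negative for 2813 genes (64.5%) and positive for 340 (7.8%). With equal S. cerevisiae medians the counts were 1048 and 1721, so the prevailing direction turned with the scaling. Of the 71 genes given here with values on both arrays, or counted with them, 36 had unequal differences by this test. Over S. pombe probe sets the test called 371 (26.6%) and 590 (42.3%).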

How the data were processed

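The deposited table held intensity values per probe set on a linear scale, from Affymetrix Yeast Genome 2.0 arrays with 1 label per array. The arrays were processed in Affymetrix Expression Console 1.4.1, per the submitters' processing notes. How probe sets were summarised, whether background was subtracted and whether the authors used the spike-in is not given in the sources used here. The trimmed mean (2% left out at either end) of the deposited intensity columns was near 500.2 in the Taf4-titled and near 100.1 in the uncopied Taf5-titled columns, so each column had been scaled over both species.

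The platform annotation gave a single gene symbol for 7244 of 10928 probe sets, several for 1 and no symbol for 3683. Names and positions of assembly R64 were found by Entrez identifier for 5449 S. cerevisiae genes (5498 probe sets), while 1746 probe sets bore S. pombe names. The genome build behind the platform annotation is not stated.

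Intensities were converted to log2, with no pseudocount, and shifted to an equal S. pombe median. Each gene was represented by its brightest probe set on average, and the dimmest 20% of genes over the 10 arrays were left out, leaving 4359 genes and 1396 S. pombe probe sets. The mean behind this filter includes the 2 arrays. A gene high on them could therefore pass, and a gene low on them be left out, through the contrast itself. Range calls are counts with no test. limma 3.58.1 in R 4.3.3 (lmFit, eBayes, two-sided, Benjamini-Hochberg over all genes fitted, threshold 0.05) fitted the strain label beside the label group of fraction and treatment, with 5 residual degrees of freedom. Simulated data over 4359 genes had independent normal noise and an equal change on both arrays. There the strain label fit called 24%, 78%, 96% and 100% of genes changed by 1, 2, 3 and 4 log2 units. It called 0.433% of unchanged genes. In the data the differences of the 2 arrays were unequal for 64.5% and 7.8% of genes. The simulation put 0.192% of unchanged genes outside the range, beside 9.1% of S. pombe probe sets in the data. Its rates thus do not describe these arrays.

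The arrays, members, gene lists and named genes were chosen with earlier results of these data known. Named genes were the strain loci and mating-type lists; the 15 largest gaps in each direction among genes that limma also called, that have a standard name and whose probe set matches a single gene; up to 3 range-called members, or the brightest member, of each of 39 lists; the 5 largest gaps in each direction among genes left out by the filter; and the 5 largest differences between the 2 arrays in each direction. The text gives a part of these, and HAP1 in addition. Alternatives were other scalings, filters, probe set summaries and model terms, and leaving out each array. A minimum gap, and the opposite fraction in the comparison of the 2 arrays, were added after the data were seen. The promoter motif count that had been planned was not run, since no promoter sequences were used here.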

Additional observations from a re-analysis of the deposited data

Results flagged for a closer look

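The differences of the 2 arrays from Taf4-labelled arrays of their own label were unequal by limma for 2813 genes with a negative and 340 with a positive sign (steady-state minus array less newly synthesized plus array). The genes most positive in this test were low on the newly synthesized plus array. HSP26, a small heat shock protein, had a value of 5.83 (adjusted p = 2.09e-13), from 0.85 on the steady-state minus array and -4.98 on the other. DDR2 had 4.15 (adjusted p = 2.07e-10), YNL208W 4.01 (1.01e-09), HSP12 3.88 (1.31e-09) and SOL4, a phosphogluconolactonase, 3.87 (1.77e-09).

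The most negative were BTN2, a v-SNARE binding protein, at -5.13 (adjusted p = 5.62e-12), BRE4 at -4.31 (1.31e-09), ECM2 at -4.28 (1.57e-09), PAU4 at -4.14 (2.08e-09) and EPL1, of the NuA4 acetyltransferase, at -4.11 (1.31e-09). For BTN2 the differences of the 2 arrays were -2.57 and 2.56, although its values, 9.37 and 9.38, were nearly the same.

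Among the genes whose common difference is given with a p-value above, several had the same sign on both arrays and an unequal size. TAF4 had a difference between arrays of -2.21 (adjusted p = 5.23e-06), TAF5 of -2.04 (1.40e-05) and AIF1 of -2.76 (0.000715). LEU2 had 1.402 (0.00811), PUT4 1.28 (0.0302), MEP2 -1.05 (0.0169) and HMX1 -0.98 (0.0316). FIT2 had 1.49 (0.000545), TIR1 1.30 (0.00208), GPX2 1.17 (0.00478) and CLC1 1.41 (0.000863). SRX1 had 1.61 (0.000430), SDH3 1.07 (0.00989) and DDR48 0.82 (0.0467). The 2 arrays differ in both fraction and treatment label, so no single label can be read from these values.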

How the results depend on the processing

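Leaving out 1 array at a time gave 30 to 239 genes above and 132 to 1356 below, and 8 to 1729 genes higher and 32 to 2956 lower by the label-matched limma fit. For S. pombe the ranges were 88 to 289 above, 38 to 265 below, 0 to 493 higher and 0 to 509 lower. The difference between the 2 arrays was negative for 2627 to 2966 genes and positive for 277 to 420 when a Taf4-labelled array was left out, and could not be fitted without either of the 2. A fit with 1 of the 2 arrays takes that array to vary like the replicates of the 8.

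With equal S. cerevisiae medians, 452 genes were above and 470 below, limma called 215 higher and 250 lower, the difference between the 2 arrays was negative for 1048 and positive for 1721, and 1 S. pombe probe set was above and 0 below. With equal trimmed means the counts were 200 above and 254 below, 47 higher and 62 lower, and 0 S. pombe probe sets below. A loess curve through S. pombe left 5 higher and 18 lower by limma, and 61 positive between the 2 arrays. Without the filter 52 genes were above and 61 S. pombe probe sets below, and with a 40% filter 17 and 18. At a gap of at least 1, added after seeing the data, 4 genes were above and 15 below, with 0 and 0 S. pombe probe sets. Matched to the opposite fraction label, limma called 296 higher and 449 lower, and 165 and 322 S. pombe probe sets. The comparison of the 2 arrays so matched, also added later, was negative for 5 genes and positive for 1419, and it turned the sign of BRE4 (0.18) and EPL1 (0.42). The treatment label alone gave 3 and 12, and an intensity trend gave 182 lower. Where no array or gene was removed, the cause was not tested.

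With the replicate number as a block, limma called 6 genes higher and 34 lower. The numbers are not shown to pair the arrays, since the labels do not say so and the correlations of replicate deviations between Taf4-labelled groups ran from -0.021 to 0.17. Among the 29 genes with a printed fitted difference, TAF4 lost its call with the block.

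Of these 29 genes, 28 passed the threshold in the fit as reported, and 19 kept their side of it under all 20 alternatives. None of the 29 changed direction, and none lost a call when 1 array was left out. The latter is no test of these genes. Each tracked gene that was called but given without a fitted difference lost its call in at least 1 such fit. The choice of printed fits thus follows that outcome. SDH3 and SPI1 lost the call with equal S. cerevisiae medians, and MET17, SIC1 and PCL1 under loess. The treatment label alone ended it for MEP2, MET17, SRX1, SPI1, SIC1, PCL1 and HSP42. TAF5 passed with equal S. cerevisiae medians, a 40% filter, an intensity trend and the opposite fraction label. Over all 71 genes tracked, 1420 pairs of gene and alternative held 1126 unchanged, 207 weaker, 87 stronger and 0 reversed. Loess and the mean over probe sets were not planned for S. pombe.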
